A study of Mus musculus with 6 samples.

Results

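The miR-30 family was followed in small RNA libraries of the mouse right substantia nigra (SN), the midbrain region whose dopaminergic neurons are lost in Parkinson's disease. Its 7 members here are the arms named mmu-miR-30a-5p, mmu-miR-30a-3p, mmu-miR-30b-5p, mmu-miR-30c-5p, mmu-miR-30d-5p, mmu-miR-30e-5p and mmu-miR-30e-3p. They were taken by name from a table that lists 1393 annotated miRNAs and 1231 predicted loci, and all 7 were present. All 7 also passed the filter on low values, which left 1065 annotated miRNAs for testing. In the study's methods, male C57BL/6J mice that were 8 weeks old received an adeno-associated virus carrying human α-synuclein with the A53T mutation, hα-syn(A53T), in the right substantia nigra pars compacta, whereas the sample labels give the overexpression as the strain. The 3 libraries of the hα-syn(A53T) group came from mice infused with artificial cerebrospinal fluid above the SN at 0.25 μL per hour for 4 weeks. The 3 libraries of the hα-syn(A53T) + Ang-(1-7) group came from mice infused in the same way with angiotensin-(1-7), a heptapeptide of the renin-angiotensin system, at 1.1 nmol per hour. Both groups therefore carried the virus and a pump, and mice without hα-syn(A53T) were not analysed here. The promoter of the virus is not given in the sources used here. For this assay n is stated as 3 per group, but pooling of mice within a library is neither stated nor denied, so the errors and p-values measure the spread between libraries.

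A miRNA is cut from a hairpin precursor as a duplex of a 5p and a 3p arm. The arm that is kept in an Argonaute protein, the guide strand, pairs with messenger RNAs mainly through bases 2 to 8 from its 5′ end, called the seed. The miR-30 guide strands are the 5p arms, which share a seed and so a large set of possible targets. They are abundant in brain and many other tissues, and they are known as regulators of autophagy through Becn1, the gene of Beclin 1, which starts autophagosome formation.

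The mature sequences of the arms are shown first because the comparisons below depend on how alike the paralogs are. They were read from the RefSeq miRNA table on GRCm38.p6, where 5 of the 7 members were matched, and the capitals mark the seed.
mmu-miR-30a-5p: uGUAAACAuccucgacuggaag
mmu-miR-30e-5p: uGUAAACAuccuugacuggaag
mmu-miR-30c-5p: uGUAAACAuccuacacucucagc
mmu-miR-30a-3p: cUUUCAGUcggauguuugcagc
mmu-miR-30e-3p: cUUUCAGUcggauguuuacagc
The guide strands of miR-30a and miR-30e differed at a single base, C13U, counted from 1 at the 5′ end with the base of miR-30a given before the position. Their 3p arms also differed at a single base, G18A on the same convention. The guide strand of miR-30c shared its first 12 bases with both and had another 3′ end. Reads of arms this alike may be divided between paralogs in a way that depends on the counting rule, which is not given in the sources used here, so the split between miR-30a and miR-30e is less certain than their sum. No member had the same values as another listed miRNA in all libraries. Of 1679 mature names in the RefSeq table, which has no entry for miR-30b-5p or miR-30d-5p, 4 had the seed GUAAACA. These were the 3 guide strands above and mmu-miR-384-5p, whose sequence departs from miR-30 after the seed.
mmu-miR-384-5p: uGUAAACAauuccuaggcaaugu

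Both hairpins that carry the near-identical arms are shown because their 5p over 3p ratios varied most within the family, with the 5p and 3p arms in capitals.
Mir30a: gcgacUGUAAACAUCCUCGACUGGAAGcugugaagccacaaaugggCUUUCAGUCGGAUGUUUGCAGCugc
Mir30e: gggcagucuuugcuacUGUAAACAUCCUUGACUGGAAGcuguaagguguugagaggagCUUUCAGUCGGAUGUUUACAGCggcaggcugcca
Mir30a lies on chromosome 1 (GRCm38.p6, 23272269 to 23272339, plus strand), and Mir30c-2 follows on the same strand 19361 bases away. Mir30e lies on chromosome 4 (120772606 to 120772697, minus strand) within Nfyc, the gene of a subunit of the transcription factor NF-Y, and in no exon of its coding transcripts. Mir30c-1 lies in the same gene, 2983 bases from Mir30e. The hairpins of miR-30b and miR-30d stand 3697 bases apart on chromosome 15. Mature miR-30c-5p is thus made from hairpins on 2 chromosomes, and its level cannot be divided between them, whereas its 3p arms differ between the hairpins and were counted separately.

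The 3′ UTR of Becn1 on chromosome 11 is 2861 bases long in its longest principal GENCODE transcript. It holds a single stretch that is complementary to the seed, TGTTTAC, starting at position 94 of the UTR and shown in capitals.
Becn1 3′ UTR: attaaaccacaTGTTTACaataccaaaat
The motif was searched on the transcribed strand, and 12.8% of the 3′ UTRs of 20762 genes hold it. The match describes the sequence, and no messenger RNA was measured in these libraries.

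The libraries held 14796519 to 17088611 reads on annotated miRNAs and detected 1067 to 1132 of them. The deposited values are normalized counts, that is, reads divided by a size factor for each library. Guide strands of the family gave 767285 to 2332076 reads per library, so counting error was small beside the spread between libraries. Over all miRNAs tested, 59 (5.54% of 1065) were higher and 43 (4.04%) were lower after Ang-(1-7) by limma at a Benjamini-Hochberg adjusted p under 0.05. Among marker miRNAs of cell types, the summed neuronal markers lay between 2977349 and 4064610 normalized counts after Ang-(1-7) and between 2708396 and 3026498 without it, with 3 of 6 higher and 1 lower. All 5 miRNAs of the epithelial miR-200 family were higher, with summed levels of 160432 to 477761 against 2863 to 8497. All 4 markers of skeletal muscle (14945 to 21833 against 42091 to 86348), both of choroid plexus (12050 to 22637 against 26004 to 49904) and 1 of 3 of red blood cells were lower. None of the markers of endothelium, smooth muscle, leukocytes or ciliated epithelium passed. No listed marker was at 0 in every library. How far a different cell make-up of the dissected pieces takes part in the results below was not tested, and in bulk tissue fewer cells of a type cannot be told apart from less RNA per cell.

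No member of the miR-30 family passed the test between the groups. Point estimates were below 0 for 6 of the 7 members, from -0.57 for miR-30d-5p to -0.08 for miR-30e-3p on the log2 scale, and that of miR-30e-5p was 0.00. The median log2 fold change was -0.36 over the members and -0.04 over all 1065 miRNAs, of which 52.1% were below 0. Adjusted p ranged from 0.175 to 0.999 in limma. By an unadjusted p under 0.05, 1 member was lower, against 11.5% of all miRNAs. Every library with Ang-(1-7) lay below every library without it for 3 members, miR-30a-3p, miR-30b-5p and miR-30c-5p, a pattern that 14% of all miRNAs showed. Since the members share seeds, hairpins and perhaps reads, they are not independent of each other.

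miR-30a-5p was among the most abundant miRNAs of the tissue, ranking between 3 and 17 by level in the 6 libraries. Its normalized counts were 206911, 404777 and 630999 in the Ang-(1-7) libraries 1, 2 and 3, and 357601, 275550 and 1124802 in the hα-syn(A53T) libraries 1, 2 and 3. The highest value was thus in hα-syn(A53T) 3 and the lowest in Ang-(1-7) 1, and the groups overlapped. The log2 fold change was -0.36 (SE 0.53, 95% interval -1.54 to 0.82, limma adjusted p = 0.735). Its sign rested on single libraries, since it was 0.07 without Ang-(1-7) 1 and 0.26 without hα-syn(A53T) 3.

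miR-30d-5p, made from the hairpin beside that of miR-30b, was as abundant as miR-30a-5p. Its normalized counts were 299671, 317786 and 557518 with Ang-(1-7) and 507171, 441636 and 776149 without. Only Ang-(1-7) 3 reached into the range of the other group. The log2 fold change was -0.57 (SE 0.29, 95% interval -1.23 to 0.09, limma adjusted p = 0.276), with all 6 libraries the lowest point estimate of the 7 members. It was -0.85 without Ang-(1-7) 3 and -0.33 without hα-syn(A53T) 3, where that of miR-30b-5p was lower at -0.56.

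miR-30e-5p, which differs from miR-30a-5p at a single base, had 67148, 136986 and 139472 normalized counts with Ang-(1-7) and 82076, 60750 and 256066 without. As for miR-30a-5p, the highest value was that of hα-syn(A53T) 3. Every Ang-(1-7) library lay within the range of the other group. The log2 fold change was 0.00 (SE 0.49, 95% interval -1.10 to 1.10, limma adjusted p = 0.999). The interval spans a change of 2-fold in either direction, so this estimate near 0 does not show that the level was equal.

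miR-30c-5p varied little between libraries. It had 182331, 154678 and 152342 normalized counts with Ang-(1-7) and 205777, 214628 and 186774 without, and the groups did not overlap. The log2 fold change was -0.31 (SE 0.18, 95% interval -0.72 to 0.09, limma adjusted p = 0.330).

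miR-30b-5p, the least abundant guide strand, also had groups that did not overlap. Its normalized counts were 10344, 14960 and 10711 with Ang-(1-7) and 17570, 17289 and 15823 without, so every Ang-(1-7) library was below the other group. The log2 fold change was -0.51 (SE 0.21, 95% interval -0.97 to -0.05, limma adjusted p = 0.175). It was the member counted above at an unadjusted p under 0.05.

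The 3p arms of miR-30a and miR-30e are the strands usually discarded from the duplex. miR-30a-3p had 16891, 17044 and 13539 normalized counts with Ang-(1-7) and 21608, 22282 and 18215 without. All 3 Ang-(1-7) libraries were lower, with a log2 fold change of -0.39 (SE 0.19, 95% interval -0.82 to 0.04, limma adjusted p = 0.259). miR-30e-3p had 15741, 14248 and 11898 normalized counts with Ang-(1-7) and 16116, 15662 and 12566 without. These groups overlapped, and the log2 fold change was -0.08 (SE 0.20, 95% interval -0.54 to 0.37, limma adjusted p = 0.844).

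**Figure D1:**
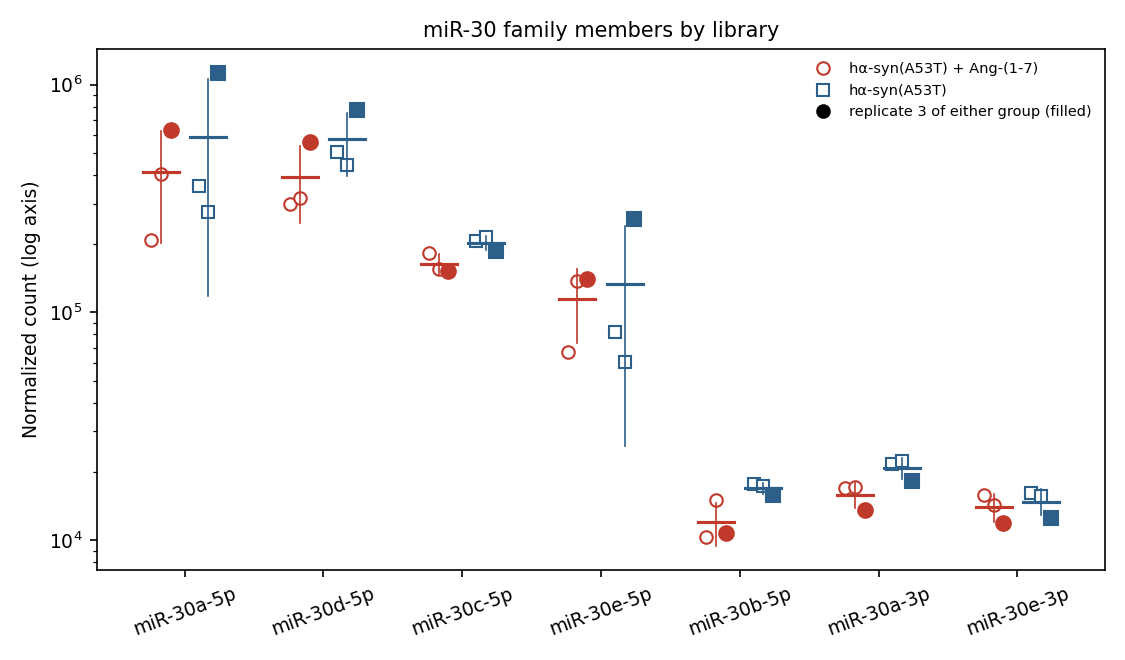
Normalized counts of the 7 members on a log axis, with circles for the 3 hα-syn(A53T) + Ang-(1-7) libraries, squares for the 3 hα-syn(A53T) libraries, filled symbols for replicate 3 of either group, horizontal lines for means and vertical lines for 1 SD. miR-30a-5p spreads from 206911 to 1124802, whereas miR-30c-5p stays between 152342 and 214628 and its groups do not overlap.

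The order of mean levels over the guide strands was the same in both groups, miR-30a-5p, miR-30d-5p, miR-30c-5p, miR-30e-5p and miR-30b-5p from the highest down, but miR-30a-5p could not be separated from miR-30d-5p, nor miR-30c-5p from miR-30e-5p. miR-30d-5p was above miR-30c-5p in every library, and their ranges did not overlap. miR-30a-5p averaged 414229 ± 212202 (SD, n = 3) normalized counts with Ang-(1-7) and 585984 ± 468430 without, and miR-30d-5p averaged 391658 ± 143924 and 574986 ± 177267. These paralogs changed places between libraries, since miR-30a-5p was the higher in Ang-(1-7) 2 and 3 and in hα-syn(A53T) 3 and the lower in the other libraries. miR-30c-5p, at 163117 ± 16681 and 202393 ± 14232, and miR-30e-5p, at 114535 ± 41058 and 132964 ± 107142, also changed places, because miR-30e-5p exceeded miR-30c-5p in hα-syn(A53T) 3. miR-30b-5p was the lowest guide strand in every library, at 12005 ± 2566 and 16894 ± 938, and miR-30a-3p was above miR-30e-3p in every library.

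The remaining arms of the miR-30 hairpins were measured at lower levels. miR-30b-3p had 658, 462 and 754 normalized counts with Ang-(1-7) and 833, 873 and 1000 without, with a log2 fold change of -0.55 (SE 0.25, limma adjusted p = 0.213). miR-30c-1-3p had 401, 303 and 349 with Ang-(1-7) and 474, 538 and 462 without, with a log2 fold change of -0.49 (SE 0.23, limma adjusted p = 0.230). Neither passed, although in both every Ang-(1-7) library was below the other group. miR-30c-2-3p (-0.47, SE 0.27, limma adjusted p = 0.335) and miR-30d-3p (-0.25, SE 0.27, limma adjusted p = 0.619) overlapped between the groups. Over the 11 miR-30 arms together, 10 point estimates were below 0, 0 passed at an adjusted p and 2 at an unadjusted p under 0.05, and the groups were apart in 5, beside the shares of all miRNAs given above. The seed relative miR-384-5p had 2766 to 2967 normalized counts with Ang-(1-7) and 2898 to 3543 without, with a log2 fold change of -0.18 (SE 0.19, limma adjusted p = 0.629). Its other arm, miR-384-3p, had a log2 fold change of -0.23 (SE 0.21, limma adjusted p = 0.560).

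**Figure D2:**
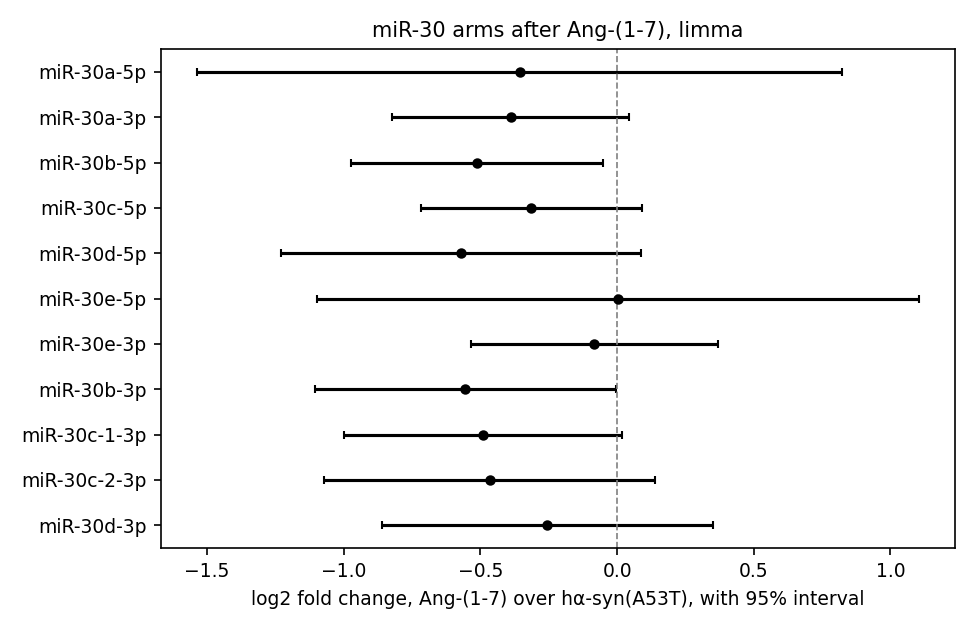
Log2 fold change of each of the 11 miR-30 arms, Ang-(1-7) over hα-syn(A53T), as points with 95% intervals from limma over 3 against 3 libraries. The intervals of miR-30b-5p and miR-30b-3p end below 0 before adjustment, that of miR-30a-5p runs from -1.54 to 0.82, and no arm passes after adjustment.

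The seed family was next taken as a whole. The 5 guide strands summed to 766404, 1029188 and 1491041 normalized counts with Ang-(1-7) and to 1170194, 1009854 and 2359614 without, a ratio of means of 0.724. In every library this was a large part of the annotated total, at 4.94%, 5.87% and 9.92% with Ang-(1-7) and 7.71%, 6.55% and 13.6% without. The groups overlapped, and within each group the library numbered 3 was the highest, with hα-syn(A53T) 3 highest of all. Summed after the values were seen, miR-30b-5p and miR-30c-5p together had 163053 to 192675 normalized counts with Ang-(1-7) and 202596 to 231917 without. That these ranges did not overlap was fixed by the choice, since each was already lower in every Ang-(1-7) library. The 6 other arms summed to less in every Ang-(1-7) library, at 29613 to 36310 against 37614 to 43184. That sum holds miR-30a-3p, its most abundant arm, with miR-30b-3p and miR-30c-1-3p, each already lower in every Ang-(1-7) library. The summed miR-30a-5p, miR-30d-5p and miR-30e-5p overlapped, at 573730 to 1327989 against 777937 to 2157017. No p is given for these sums, which are made of the members themselves.

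Within the summed guide strands, miR-30a-5p held 27.0%, 39.3% and 42.3% with Ang-(1-7) and 30.6%, 27.3% and 47.7% without. miR-30d-5p held 39.1%, 30.9% and 37.4% against 43.3%, 43.7% and 32.9%. Together these paralogs made up most of the guide strands in each library, and the share of miR-30a-5p was highest in the libraries numbered 3 of both groups. miR-30c-5p held 23.8%, 15.0% and 10.2% with Ang-(1-7) and 17.6%, 21.3% and 7.92% without. miR-30e-5p held 8.76%, 13.3% and 9.35% against 7.01%, 6.02% and 10.9%, and miR-30b-5p held 0.718% to 1.45% against 0.671% to 1.71%. The shares of miR-30c-5p and miR-30b-5p were lowest in the libraries numbered 3, which have the highest sums. Mean differences between the groups ran from -4.20 percentage points for miR-30d-5p to 2.51 for miR-30e-5p, each smaller than the range within a group, and all 5 shares overlapped. Leaving out 1 library moved these differences widely, and without hα-syn(A53T) 3 they were 7.29 percentage points for miR-30a-5p and -7.75 for miR-30d-5p.

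**Figure D3:**
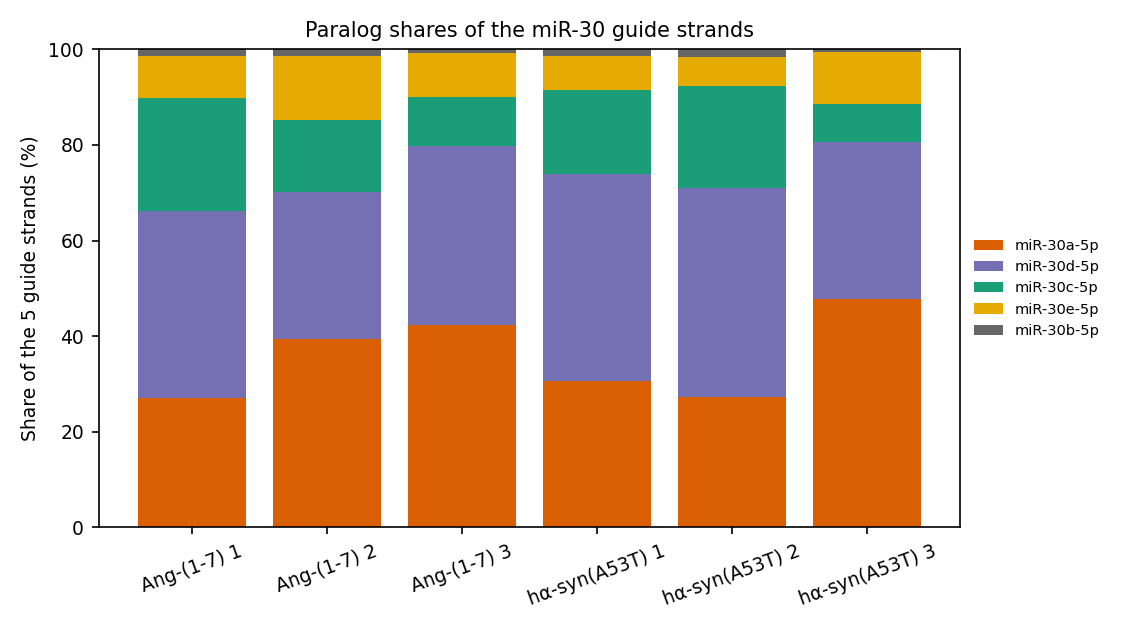
Stacked bars of the share in percent of each of the 5 guide strands in their sum, 1 bar per library, from 0 to 100%. miR-30a-5p takes 42.3% and 47.7% in the libraries numbered 3, where miR-30c-5p falls to 10.2% and 7.92%.

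Ratios between paralogs, chosen after the values were seen, varied over the libraries by 1.35-fold to 5.31-fold among the 8 computed. miR-30a-5p was 3.08, 2.95 and 4.52 times the level of miR-30e-5p with Ang-(1-7) and 4.36, 4.54 and 4.39 times without. This ratio varied by 1.54-fold over all libraries although each member varied by more than 4-fold. Against miR-30c-5p, whose hairpin Mir30c-2 lies near Mir30a, the ratio of miR-30a-5p ran from 1.13 to 4.14 with Ang-(1-7) and from 1.28 to 6.02 without, a spread of 5.31-fold. The 3p arms of miR-30a and miR-30e stood in a ratio of 1.07, 1.196 and 1.14 with Ang-(1-7) and 1.34, 1.42 and 1.45 without. This was the only ratio of the 8 computed in which the groups did not overlap, and it received no test because it was picked after its values were seen.

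The ratio of the 5p to the 3p arm does not depend on the size factor of a library, since both arms are read in the same library. For miR-30a it was 12.3, 23.7 and 46.6 with Ang-(1-7) and 16.5, 12.4 and 61.8 without. For miR-30e it was 4.27, 9.61 and 11.7 with Ang-(1-7) and 5.09, 3.88 and 20.4 without. Both ratios were highest in hα-syn(A53T) 3, and in both the Ang-(1-7) library numbered 3 came next. The log2 difference between the groups was 0.03 (SE 0.75, 95% interval -1.75 to 1.82) for miR-30a and 0.09 (SE 0.72, 95% interval -1.63 to 1.80) for miR-30e. The direction of such small differences turned with single libraries, the value for miR-30a being -0.45 without Ang-(1-7) 3 and 0.74 without hα-syn(A53T) 3.

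The other hairpins did not follow the same order of libraries. For miR-30b the ratio was 15.7, 32.4 and 14.2 with Ang-(1-7) and 21.1, 19.8 and 15.8 without, with a log2 difference of 0.04 (SE 0.41). For miR-30d it was 525, 380 and 998 against 521, 558 and 1320, with a log2 difference of -0.32 (SE 0.53). The miR-30d ratio was again highest in the libraries numbered 3, while that of miR-30b was highest in Ang-(1-7) 2. For miR-30c, set over its 3p arms summed, it was 74.4, 54.1 and 53.2 with Ang-(1-7) and 71.8, 60.0 and 35.6 without, lowest in hα-syn(A53T) 3. The 4 tested ratios had adjusted p of 0.928 to 0.991 in limma across the 338 hairpins with both arms measured. Among all 338, 0 passed (0%), with 28 at an unadjusted p under 0.05, none of which was a miR-30 hairpin.

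**Figure D4:**
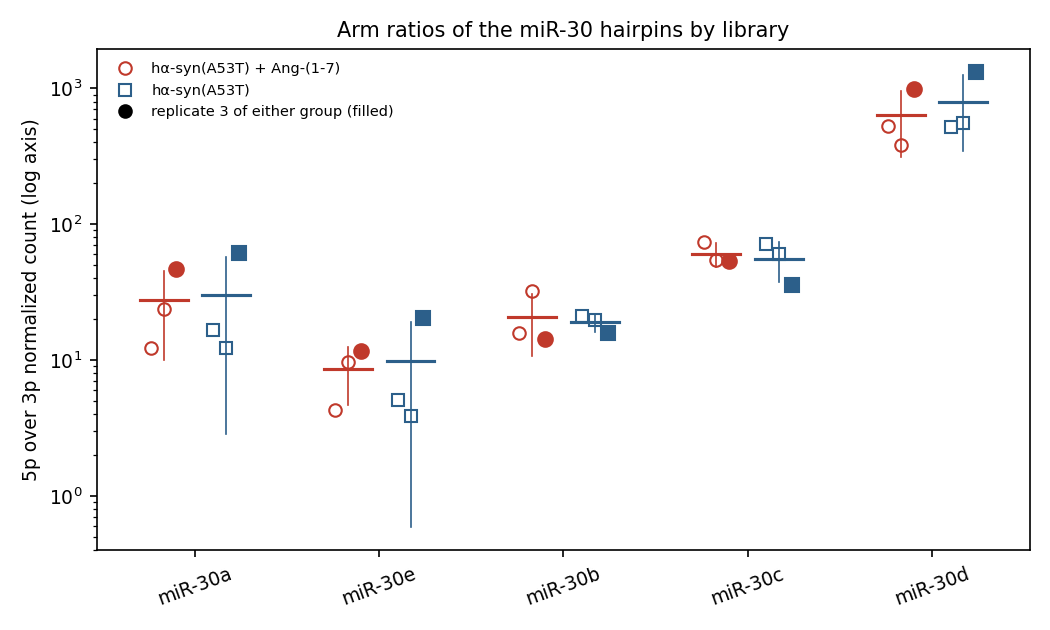
Ratio of the 5p to the 3p normalized count for each miR-30 hairpin on a log axis, with symbols, means and SD as in the plot of levels and miR-30c set over its summed 3p arms. miR-30a spans 12.3 to 61.8 and miR-30e 3.88 to 20.4, with both groups spread over most of the range.

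The spread of the members over the 6 libraries, described after the values were seen, fell into a wide and a narrow set. The log2 range from the lowest to the highest library was 2.44 for miR-30a-5p, 2.08 for miR-30e-5p and 1.37 for miR-30d-5p. It was 0.76 for miR-30b-5p, 0.72 for miR-30a-3p, 0.49 for miR-30c-5p and 0.44 for miR-30e-3p. Over the 112 miRNAs with a mean of at least 10000 normalized counts the median range was 0.96, so the first 3 members were above and the other 4 below it. In the arm ratio, the log2 range was 2.33 for miR-30a and 2.39 for miR-30e, which ranked 9 and 7 of 120 hairpins with at least 50 normalized counts for both arms in every library. That of miR-30d (1.79) ranked 21 and that of miR-30b (1.19) ranked 47, beside a median of 1.02. Arms cut from the same hairpin thus differed in spread, the 5p arm of miR-30a varying by 5.44-fold while its 3p arm varied by 1.65-fold. The 5p arm also had the wider log2 range for miR-30e and for miR-30d, whose 3p arm was at 0.80. For miR-30b and miR-30c the 3p arms were wider, at 1.11 for miR-30b-3p, 0.83 for miR-30c-1-3p and 1.22 for miR-30c-2-3p.

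**Figure D5:**
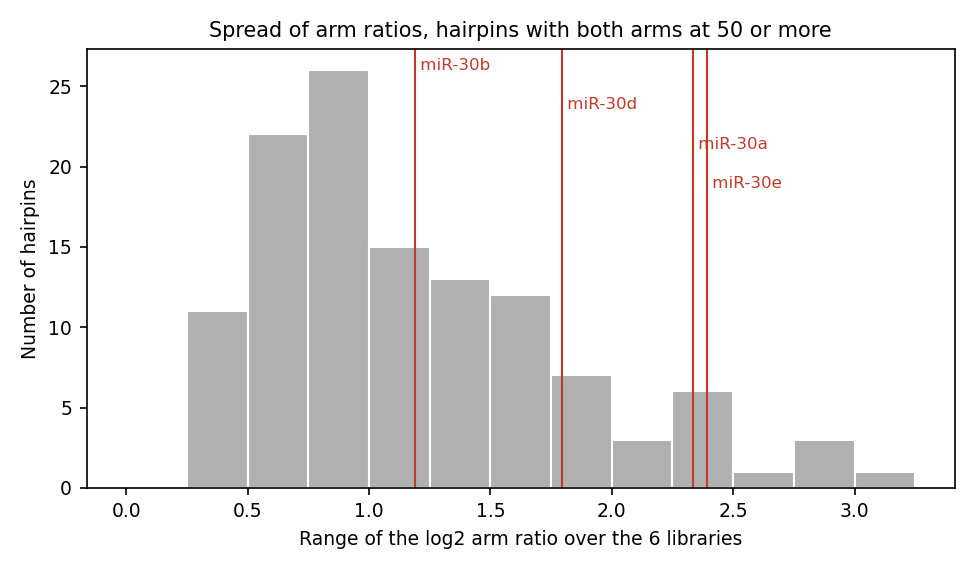
Histogram of the log2 range of the 5p over 3p ratio across the 6 libraries for 120 hairpins, with red lines at miR-30b, miR-30d, miR-30a and miR-30e. miR-30a (2.33) and miR-30e (2.39) lie in the upper tail, and the median hairpin has a range of 1.02.

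Summed oligodendrocyte markers, miR-219a and miR-338 arms of myelin-forming cells, had 36640, 35886 and 66079 normalized counts with Ang-(1-7) and 60729, 77903 and 168387 without. Like miR-30a-5p they were highest in the library numbered 3 of each group, and 1 of the 4 markers was lower after Ang-(1-7) and none was higher. This order was not particular to them. Summed skeletal muscle markers were also highest in library 3 of each group, and all 4 were lower after Ang-(1-7). Their sums were 14996, 14945 and 21833 with Ang-(1-7) and 42091, 58382 and 86348 without. The Hox-encoded markers of hindbrain and spinal cord summed to 1373 to 31727 with Ang-(1-7), again highest in its library 3, and to 12670 to 74596 without, highest in hα-syn(A53T) 2, and 1 of these 4 markers was lower after Ang-(1-7) and none was higher. In a fit added after the data were seen, with the log2 oligodendrocyte marker level as a covariate, the log2 fold change was 1.01 (SE 0.44, limma adjusted p = 0.261) for miR-30a-5p and 0.11 (SE 0.24, limma adjusted p = 0.837) for miR-30d-5p. The signs of both thus changed in this fit. The marker level itself differed between the groups, and only Ang-(1-7) 3 reached into the range of the other group. With 6 libraries the fit therefore cannot tell the covariate well apart from the treatment. No other marker list was fitted as a covariate, and the cause of the changed signs was not tested. In the same fit miR-30e-5p was at 1.16 (SE 0.50, limma adjusted p = 0.259) and miR-30a-3p at -0.65 (SE 0.19, limma adjusted p = 0.115), so that the 5p and 3p arms of miR-30a had opposite signs, and no member passed. Without both libraries numbered 3, also an added fit, miR-30a-5p was at -0.12 (SE 0.32, limma adjusted p = 0.851), miR-30d-5p at -0.62 (SE 0.16, limma adjusted p = 0.0585) and miR-30e-5p at 0.44 (SE 0.34, limma adjusted p = 0.455). The libraries left out hold the highest guide strand sum of their group, so this fit is not independent of the values.

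The profile of the summed guide strands over the 6 libraries was most like those of miR-378c, miR-146b-5p and miR-101a-3p among 1052 annotated miRNAs. The measure was the root mean square difference of the centred log2 values, which was 0.167, 0.181 and 0.191. All 3 had their highest level in hα-syn(A53T) 3 and their lowest in Ang-(1-7) 1, as the sum had. miR-101a-3p, the most abundant, had 110740, 182374 and 185064 normalized counts with Ang-(1-7) and 179347, 139169 and 423956 without, and its groups overlapped.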

How the data were processed

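Small RNA libraries from right SN tissue were sequenced by the authors on a NovaSeq. Per the labels, clean reads were aligned with Bowtie 1.2.3 to mm9 and normalized with DESeq2 1.10.1. How reads were trimmed and counted, and the miRBase release, was not given in the sources used here. All deposited values are a signal unit, normalized counts: reads divided by size factors, with separate factors for annotated miRNAs and predicted loci. Within annotated miRNAs all values were whole multiples of the value of 1 read (100%, tolerance 1e-06). Deposited columns with the authors' fold changes and p-values, and a sheet of counts of calls, were not used. No column was left unmapped.

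log2(normalized count + 1) of annotated miRNAs with at least 1 in at least 3 libraries was fitted with limma 3.58.1 (trend, 2-sided, R 4.3.3), with Benjamini-Hochberg adjustment over all miRNAs tested. Log2 arm ratios were fitted likewise over all hairpins. Fold changes are on this scale. limma was tested on simulated counts with a single dispersion for all miRNAs. The spread of miR-30a-5p and miR-30e-5p was wider than in that setting, so the simulation does not cover them. An exact permutation of 3 against 3 libraries cannot give p below 0.1. Named were all members, the other miR-30 arms, miRNAs with the same seed and their other arms, and the 3 most similar profiles. The members and lists were chosen with earlier results of these data known. Sequences are RefSeq (GRCm38.p6) and UTRs GENCODE vM21, and no coordinate of the files was used. Tables and plots were made with Python 3.11.15, pandas 2.3.3 and matplotlib 3.10.9.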

Additional observations from a re-analysis of the deposited data

How the results depend on the processing

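The 7 members gave 126 single results over 18 alternatives, of which 114 kept their sign and side of the threshold, 11 changed sign and 1 passed. With the replicate block miR-30d-5p was at -0.57 (adjusted p = 0.0391), so 1 member was lower in place of 0. The deviations of same-numbered libraries correlated at 0.123, -0.087 and 0.177, and those of differently numbered libraries at -0.221 to 0.138. These correlations cannot decide whether the numbers pair the samples. miR-30e-5p changed sign when scaled to library totals (-0.0033) and with voom on whole reads (-0.0044, added after seeing the data). With the oligodendrocyte marker level as a covariate, also added after seeing the data, miR-30a-5p (1.01), miR-30d-5p (0.11) and miR-30c-2-3p (0.072) changed sign. The cause was not tested for any of these. Leaving out 1 library at a time, the log2 fold change ran from -0.76 to 0.26 for miR-30a-5p, from -0.42 to 0.62 for miR-30e-5p, from -0.85 to -0.33 for miR-30d-5p and from -0.20 to 0.028 for miR-30e-3p, and no member passed. The arm ratio difference then ran from -0.45 to 0.74 for miR-30a, from -0.33 to 0.26 for miR-30b, from -0.70 to 0.11 for miR-30d and from -0.38 to 0.82 for miR-30e. The log2 difference of the summed guide strands ran from -0.66 to -0.04. The share difference then ran from -2.90 to 7.29 percentage points for miR-30a-5p, from -7.75 to -1.74 for miR-30d-5p, from -3.07 to 3.83 for miR-30c-5p, from 1.10 to 3.96 for miR-30e-5p and from -0.43 to 0.11 for miR-30b-5p. Over all miRNAs 59 were higher and 43 lower with all libraries. These counts were 25 and 21 without Ang-(1-7) 1, 31 and 22 without Ang-(1-7) 2 and 62 and 49 without Ang-(1-7) 3. They were 21 and 12 without hα-syn(A53T) 1, 19 and 8 without hα-syn(A53T) 2 and 55 and 30 without hα-syn(A53T) 3. With the covariate they were 29 and 18. The planned count models on recovered whole reads were not run, and voom on the whole reads of annotated miRNAs was fitted in their place. With 3 libraries a group, the spread between libraries and not depth limits these comparisons.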

Other observations

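miR-340-5p, named after its values were seen, had the profile nearest to that of miR-30a-5p alone among the annotated miRNAs, with a root mean square difference of 0.068 on the centred log2 scale over the 6 libraries against 0.261 for the next. It has another seed and lies on another chromosome (GRCm38.p6, chromosome 11, 50069720 to 50069741, plus strand, seed in capitals).
mmu-miR-340-5p: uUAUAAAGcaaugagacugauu
Its normalized counts were 52364, 101227 and 163284 with Ang-(1-7) and 82670, 72170 and 264145 without. This was 23.1% to 26.2% of the level of miR-30a-5p in each library, while the level itself varied by 5.04-fold. Its 5p over 3p ratio was 8.05, 14.8 and 28.3 with Ang-(1-7) and 13.03, 10.6 and 54.4 without, in the same order of libraries as its level, and its log2 range ranked 4 of the 120 hairpins. Its 3p arm varied by 1.41-fold.

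miR-30f, also named after its values were seen, is annotated on the strand opposite Mir30e over the same interval. It had 0, 1.10 and 4.54 normalized counts with Ang-(1-7) and 7.18, 4.63 and 6.07 without, with a log2 fold change of -1.60 (SE 0.66, limma adjusted p = 0.183). The strand rule of the counting is not given in the sources used here, so these few reads cannot be assigned firmly to either strand.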
